A study of Mus musculus with 24 samples.

Results

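The expression of all genes was compared between CD8 T cells with 1 floxed Pou2af1 allele under CD4-Cre and control CD8 T cells without Cre, in 8 of the 24 libraries of a mouse RNA sequencing study. The 8 were the 4 heterozygote and the 4 control CD8 libraries, chosen by their labels and not by any measured value. By the genotype label the controls were CD4.Cre- with Pou2af1 fl/fl, although their titles call them +/+; they are called wild type here. The heterozygotes were CD4.Cre+ with Pou2af1 fl/+. The knockouts, set beside them where a result needs it, were CD4.Cre+ with Pou2af1 fl/fl. Heterozygotes therefore differed from wild type both in Cre and in the number of floxed alleles, and these cannot be told apart within this pair of groups. All mice were C57BL/6 and 12 weeks old. T cells were sorted from spleen and stimulated in culture for 2 days with antibodies to CD3 and CD28, the antigen receptor complex and its main costimulatory receptor. CD4-Cre uses a Cd4 promoter and enhancer and is active when thymocytes express both CD4 and CD8, so CD8 cells carry the deletion too.

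Pou2af1 encodes a coactivator, also known as OCA-B or BOB.1, that docks on DNA-bound octamer factors (POU2F1, POU2F2) rather than binding DNA on its own. It is best known from B cells, where germinal centres depend on it, and it is also expressed in activated T cells. In CD8 cells the octamer factors act in a setting of fast division, cytokine production and loading of cytotoxic granules.

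The 8 libraries held 12576541 to 15922320 gene counts (13290290 to 14670809 in heterozygotes). CPM expresses a gene's count relative to its library's total, and 3 counts, the floor used here, came to 0.1884 to 0.2385 CPM. Levels below are TMM-normalised CPM, which are not per gene length. The CD8 label was met in every library: Cd8a stood at 641 to 704 CPM in wild type and 688 to 759 CPM in heterozygotes, Cd8b1 at 298 to 319 and 299 to 332 CPM, and Cd4 did not exceed 1.74 CPM. The NK cell marker Ncr1 and the neutrophil marker S100a8 were at 0 in all 8 libraries. Klre1, also of the NK cell list, stood at 3.65 to 4.69 CPM in wild type and 3.63 to 7.4 CPM in heterozygotes. The B cell list was led by Ighm (352 to 403 CPM in wild type, 374 to 409 CPM in heterozygotes) and the regulatory T cell list by Ikzf2 (55.6 to 73.4 and 36.2 to 75.5 CPM). Macrophage markers summed to 3.114 to 3.797 CPM in wild type and 2.184 to 3.84 CPM in heterozygotes, and dendritic cell markers to 4.418 to 9.797 and 4.111 to 14.15 CPM. By Xist and Ddx3y, wild type held 1 female library (replicate 3) and heterozygotes held 2 (replicates 1 and 2). The labels do not say that replicates came from separate animals, so p-values measure the spread between these libraries, part of which may be technical.

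The first measurement checked the labels. Pou2af1 (ENSMUSG00000032053.8, GRCm38 chromosome 9, 51213708 to 51240080) stood at 22.0, 23.4, 34.9 and 30.4 CPM in wild-type replicates 1 to 4 and at 16.4, 13.5, 16.2 and 15.8 CPM in the heterozygotes. Every heterozygote lay below every wild-type library, and the heterozygotes were the tighter group. The means were 27.7 ± 6.05 and 15.5 ± 1.34 CPM (SD, n = 4 each), so heterozygotes held 55.9% of the wild-type mean. The log2 change was -0.84 (SE 0.21, edgeR quasi-likelihood unadjusted p = 0.00169), which did not pass over all genes (edgeR adjusted p = 1.0). Knockouts stood at 2.19, 2.44, 1.47 and 0.76 CPM, -3.16 below heterozygotes on the log2 scale (SE 0.26, edgeR adjusted p = 0.000141). Pou2af1 is a B cell gene too, and the B cell marker Ebf1 also lay lower in the heterozygotes, at 0.414 to 1.14 CPM in wild type and 0.142 to 0.274 CPM in heterozygotes. The summed level of the B cell marker list overlapped, at 362.2 to 421.2 and 384.9 to 431.4 CPM. The part of these cells in the Pou2af1 level was not tested. In bulk libraries, fewer cells of a type and less RNA per cell cannot be told apart.

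Across the 12612 genes tested, 8 were called between heterozygote and wild-type CD8 cells at an edgeR adjusted p under 0.05, which is 0.0634% of genes (0.0317% higher and 0.0317% lower). The 4 that rose were Rps3a3, Tpm3-rs7, Gm8778 and 2010007H06Rik. The 4 that fell were Tmod3, Rps3a1, Tpm3 and Cd1d1. No cytokine, granzyme, T cell transcription factor or receptor of the lists examined was among them. The other genes were centred, with a median log2 change of 0.004 over all genes tested, 6541 above 0 (51.9%) and 6071 below (48.1%). An unadjusted p under 0.05 was reached by 220 genes (1.74%) and under 0.01 by 43 (0.341%). Evenly spread p-values would give shares of 0.05 and 0.01 of genes, and both shares lay below these. The reason was not tested, and a gene that did not pass is not thereby shown to be unchanged. In 189 genes (1.5%) the 4 heterozygote values did not overlap the 4 wild-type values, with 94 higher (0.745%) and 95 lower (0.753%).

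**Figure D1:**
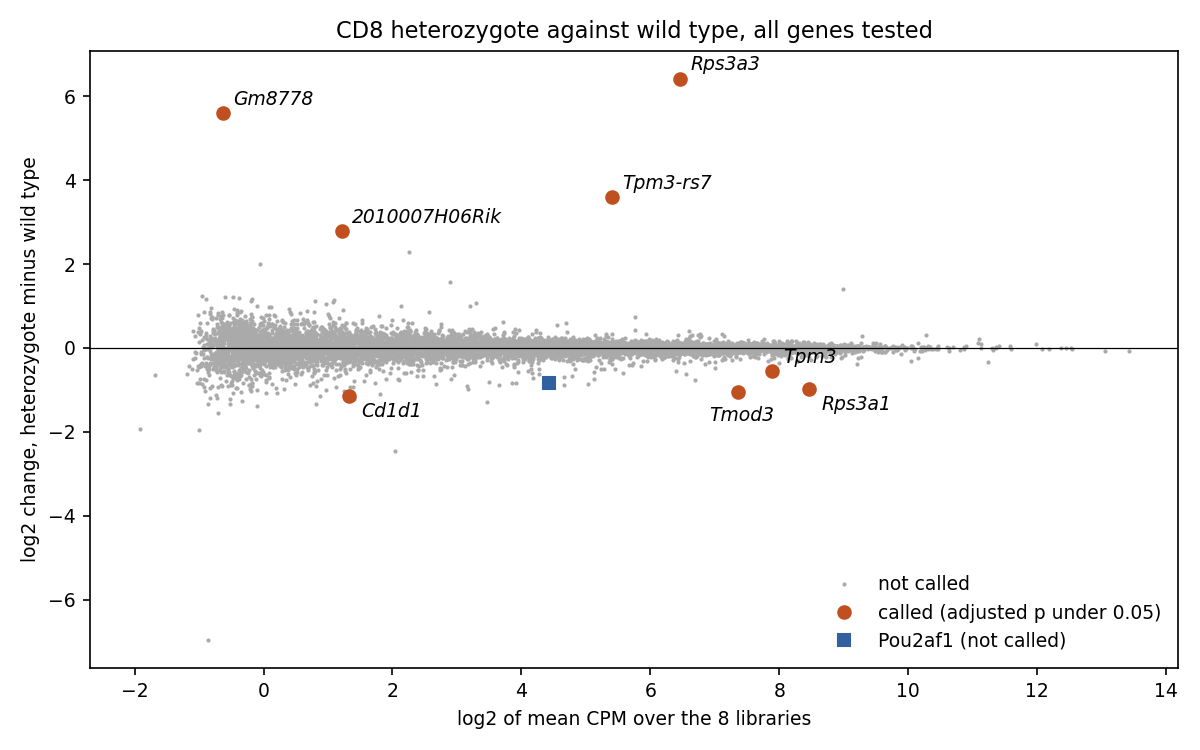
Log2 change of each tested gene (y axis, heterozygote minus wild type) against the log2 of its mean CPM over the 8 libraries (x axis). Orange points are the 8 called genes, the blue square is Pou2af1 at -0.84, and grey points are genes not called; the called rises reach further from 0 than the called falls.

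Rps3a3 and Tpm3-rs7, which rose, are near-identical copies of Rps3a1 and Tpm3, which fell. Rps3a1 encodes protein S3a of the small ribosomal subunit, and Rps3a3 is annotated as a processed pseudogene, a copy without introns. Tpm3 encodes a tropomyosin, a rod that lies along actin filaments, and Tpm3-rs7 is an annotated protein-coding copy with 1 exon. Coding sequence of each gene was aligned with its copy from the GENCODE M21 transcripts of GRCm38. Rps3a1 (6 exons) and Rps3a3 (1 exon) shared 791 aligned bases with 8 substitutions, an identity of 99.0%, and the longest run without a difference was 215 bases. Tpm3 (8 exons) and Tpm3-rs7 shared 744 aligned bases with 3 substitutions, an identity of 99.6%, and a longest run of 617 bases. The stretches of 60 bases below are shown because they hold the most differences. Within the aligned part, a read across such a base differs in sequence between the gene and its copy. Reads over an exon junction of the gene, or reaching beyond the aligned part, may also be placed. The part of each kind of read in the counts was not tested. Capitals mark the differing bases.
Rps3a1, chr3:86141333-86141392, minus strand: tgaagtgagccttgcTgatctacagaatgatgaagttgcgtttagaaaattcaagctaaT
Rps3a3, chr13:108670803-108670862, plus strand: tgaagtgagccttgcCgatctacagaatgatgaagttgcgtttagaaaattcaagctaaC
Tpm3, chr3:90079799-90079858, plus strand: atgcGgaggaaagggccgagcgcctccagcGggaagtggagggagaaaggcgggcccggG
Tpm3-rs7, chr14:113314743-113314802, plus strand: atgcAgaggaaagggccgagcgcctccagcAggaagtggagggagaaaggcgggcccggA
With positions counted from 1 at the first coding base of the gene, and the gene's base written first, the substitutions were T216C and T260C for the Rps3a1 pair and G72A, G98A and G127A for the Tpm3 pair. The stretch of Rps3a1 lies in exon 3 and that of Tpm3 in exon 1 of the aligned transcript.

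Rps3a1 (ENSMUSG00000028081.6, chromosome 3, 86137940 to 86142702) stood at 470, 478, 448 and 470 CPM in wild type and 242, 232, 230 and 241 CPM in heterozygotes. The level was lower by close to the same amount in all 4 heterozygotes, and the means were 467 ± 12.6 and 236 ± 5.84 CPM (SD, n = 4 each). It fell by 0.98 on the log2 scale (SE 0.07, edgeR adjusted p = 1.72e-05). Rps3a3 (ENSMUSG00000059751.7, chromosome 13, 108670603 to 108671397) stood at 1.59, 2.62, 2.15 and 1.79 CPM in wild type and 178, 183, 173 and 163 CPM in heterozygotes. Wild-type libraries held 21 to 34 counts, and no heterozygote had fewer than 2300. It rose by 6.41 (SE 0.12, edgeR adjusted p = 4.54e-12), the largest rise among the 8 called genes.

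Tpm3 (ENSMUSG00000027940.18, chromosome 3, 90072649 to 90100902) stood at 276, 281, 292 and 283 CPM in wild type and 185, 193, 187 and 203 CPM in heterozygotes. It fell by 0.56 on the log2 scale (SE 0.05, edgeR adjusted p = 0.00016), to 67.9% of the wild-type mean. Tpm3-rs7 (ENSMUSG00000058126.7, chromosome 14, 113314608 to 113316754) stood at 5.62, 6.42, 6.9 and 7.04 CPM in wild type and 79.4, 77.4, 80.4 and 76.0 CPM in heterozygotes. It rose by 3.59 (SE 0.08, edgeR adjusted p = 1.23e-11). Within each genotype the 4 libraries lay close together, and no gene of these pairs had overlapping groups.

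Added together, gene and copy moved much less than either did alone. The sum of Rps3a1 and Rps3a3 was 469 ± 12.7 CPM in wild type and 410 ± 8.22 CPM in heterozygotes (SD, n = 4 each), 87.6% of wild type. The sum of Tpm3 and Tpm3-rs7 was 290 ± 7.32 and 271 ± 6.43 CPM (SD, n = 4 each), 93.4% of wild type. Neither sum overlapped between the groups, and the exact two-sided permutation p was 0.0286 for each, the smallest that 4 against 4 libraries can give over 70 assignments (adjusted over the 2 sums, 0.0286). Both sums are of genes called in these same libraries, so this p is not separate support. The sums hold only reads that the aligner placed once, not all RNA of gene and copy. The mean of Rps3a1 was lower by 230 CPM and that of Rps3a3 higher by 172 CPM, and for the Tpm3 pair these were 90.9 and 71.8 CPM. Rps3a3 made up 0.338% to 0.544% of its sum in wild type and 40.3% to 44.2% in heterozygotes. Tpm3-rs7 made up 2.0% to 2.43% and 27.2% to 30.1%.

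**Figure D2:**
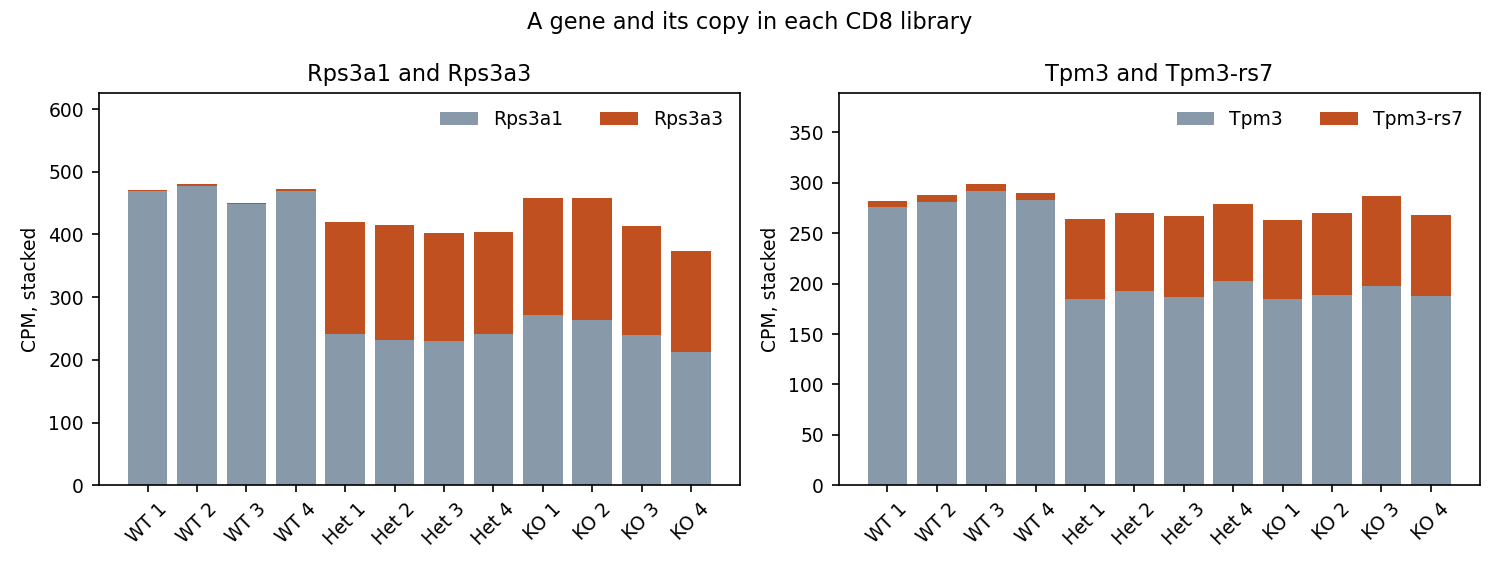
Stacked CPM (y axis) of Rps3a1 with Rps3a3 (left) and of Tpm3 with Tpm3-rs7 (right) in each CD8 library (x axis; WT wild type, Het heterozygote, KO knockout, with replicate numbers). The copy, in orange, is a thin cap in the 4 wild-type libraries and a thick one in all heterozygotes and knockouts, while the height of the whole bar changes less.

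Other near-identical copies of the same genes were searched at 90% identity or more over at least 80% of the coding sequence. Rps3a1 had 7 such copies, of which 5 were tested and 1, Rps3a3, was called. Rps3a2 on chromosome 14 stood at 3.95, 3.72, 2.41 and 3.18 CPM in wild type and 1.41, 2.13, 2.26 and 1.16 CPM in heterozygotes, a log2 difference of -0.92 that did not pass (SE 0.36, edgeR unadjusted p = 0.0232). Its groups did not overlap, and its direction was that of Rps3a1, not that of Rps3a3. The other tested copies lay above wild type without passing. They were Gm7600 (log2 difference 2.28, edgeR unadjusted p = 0.0286), Gm5586 (0.21) and Gm8960 (0.12). Gm7600 stood at 26.6 CPM in 1 heterozygote library and at 1.28 to 2.35 CPM in the others. Tpm3 had 2 copies, of which Tpm3-rs7 alone was tested. The other tropomyosin genes did not pass: Tpm1 stood at 55.1 ± 5.3 and 60.9 ± 7.11 CPM and Tpm4 at 525 ± 16.4 and 554 ± 17.6 CPM (wild type and heterozygote, SD, n = 4 each). Tpm2 stayed at 0.64 CPM or less.

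A further copy was called on chromosome 6. Gm8778 (ENSMUSG00000079223.3, 128976866 to 128977972) is annotated as a processed pseudogene within the span of Clec2g. It was found as a copy of Isg20l2, which encodes a nucleolar exonuclease that trims ribosomal RNA precursors. Gm8778 was not itself searched against other coding sequences. Gm8778 stood at 0, 0, 0.0633 and 0 CPM in wild type and 1.56, 0.996, 1.05 and 1.51 CPM in heterozygotes. Only 1 wild-type library held a count, and every heterozygote was above the floor. Over all libraries of a group there was 1 count in wild type and 71 in heterozygotes, a ratio per total count of 72.2 (exact binomial 95% interval 12.6 to 2890, counting error only), and the edgeR adjusted p was 0.00016. Isg20l2 itself (chromosome 3, 87930314 to 87940686) did not pass, with 169, 170, 186 and 175 CPM in wild type and 174, 160, 156 and 178 CPM in heterozygotes (log2 difference -0.07, SE 0.07, edgeR unadjusted p = 0.334). Clec2g held at most 1 count in any of the 8 libraries. This pair was less alike than the other two, with 57 substitutions over 1088 aligned bases (94.8%), a longest identical run of 91 bases and, in the stretch with the most differences, the 7 substitutions C78T, G92A, A94C, G96T, C106A, G113T and C136T.
Isg20l2, chr3:87931560-87931619, plus strand: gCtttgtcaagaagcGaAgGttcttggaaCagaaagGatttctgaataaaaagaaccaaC
Gm8778, chr6:128977837-128977896, minus strand: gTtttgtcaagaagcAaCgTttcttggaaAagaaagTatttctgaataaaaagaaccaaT
Capitals again mark the differing bases, and the stretch is shown to set this looser match beside the closer ones.

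Outside these pairs, Tmod3 had the lowest p of the called genes. Tropomodulin 3 caps the slow-growing end of actin filaments together with tropomyosin and is the form found in most cells. Tmod3 (ENSMUSG00000058587.9, chromosome 9, 75497707 to 75559657) stood at 207, 218, 218 and 242 CPM in wild type and 110, 107, 114 and 99.1 CPM in heterozygotes. The 4 heterozygotes lay at close to 1 level, 48.6% of the wild-type mean, and it fell by 1.04 on the log2 scale (SE 0.07, edgeR adjusted p = 1.32e-05). Knockouts stood at 220, 196, 230 and 233 CPM, within or near the wild-type range. The knockout minus heterozygote difference was 1.03 (SE 0.07, edgeR adjusted p = 4.44e-05). By their labels wild type and knockout share 2 floxed alleles and differ in Cre, and the heterozygote is the group with 1.

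No other gene of the actin end-capping list was called. The list holds 15 genes, of which 11 were tested, 1 was called lower, 8 lay above wild type and 3 below, with a median log2 difference of 0.03. Tmod1, the form of red cells and muscle, stood at 16.5 ± 3.9 CPM in wild type and 17.0 ± 2.61 CPM in heterozygotes (SD, n = 4 each). Tmod2 and Tmod4 did not exceed 0.64 CPM in any of the 8 libraries. Capg, a gelsolin relative, had the next lowest p, at 88.5 ± 11.9 and 107 ± 12.6 CPM (SD, n = 4 each; edgeR unadjusted p = 0.101). Twf2, a twinfilin, stood at 54.0 ± 2.83 and 57.7 ± 2.83 CPM (SD, n = 4 each; edgeR unadjusted p = 0.213).

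Cd1d1 and 2010007H06Rik were called at low levels. Cd1d1 encodes the molecule that presents lipids to NKT cells. Cd1d1 (ENSMUSG00000028076.12, chromosome 3, 86995834 to 86999441) stood at 2.96, 3.65, 3.86 and 3.38 CPM in wild type and 1.34, 1.56, 1.81 and 1.51 CPM in heterozygotes, 39 to 61 counts against 18 to 24. The groups did not overlap, and it fell by 1.15 on the log2 scale (SE 0.17, edgeR adjusted p = 0.0254). This call was lost on leaving out any 1 of 7 of the 8 libraries (edgeR adjusted p = 0.0547 to 0.157) and kept without wild-type replicate 1. It was also lost with all 24 libraries in the fit, with the 8 libraries alone and without the count filter, and it passed under 6 of 20 alternatives in all. Its neighbour and close relative Cd1d2 did not exceed 0.152 CPM in any library.

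2010007H06Rik (ENSMUSG00000044694.2, chromosome 9, 51278513 to 51284210) is annotated as antisense and starts 0.0648 Mb beyond the start of Pou2af1, overlapping the end of Colca2. It stood at 0.0759, 0.792, 0.76 and 0.69 CPM in wild type and 3.94, 4.41, 4.22 and 3.7 CPM in heterozygotes. Wild-type libraries held 1 to 12 counts and heterozygotes 53 to 62. It rose by 2.78 on the log2 scale (SE 0.32, edgeR adjusted p = 0.00223). Colca2 held 1 count in 1 heterozygote and none elsewhere in the 8 libraries. Reads of the 2 strands cannot be told apart here, because no source used here gives the strand setting of the counting.

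**Figure D3:**
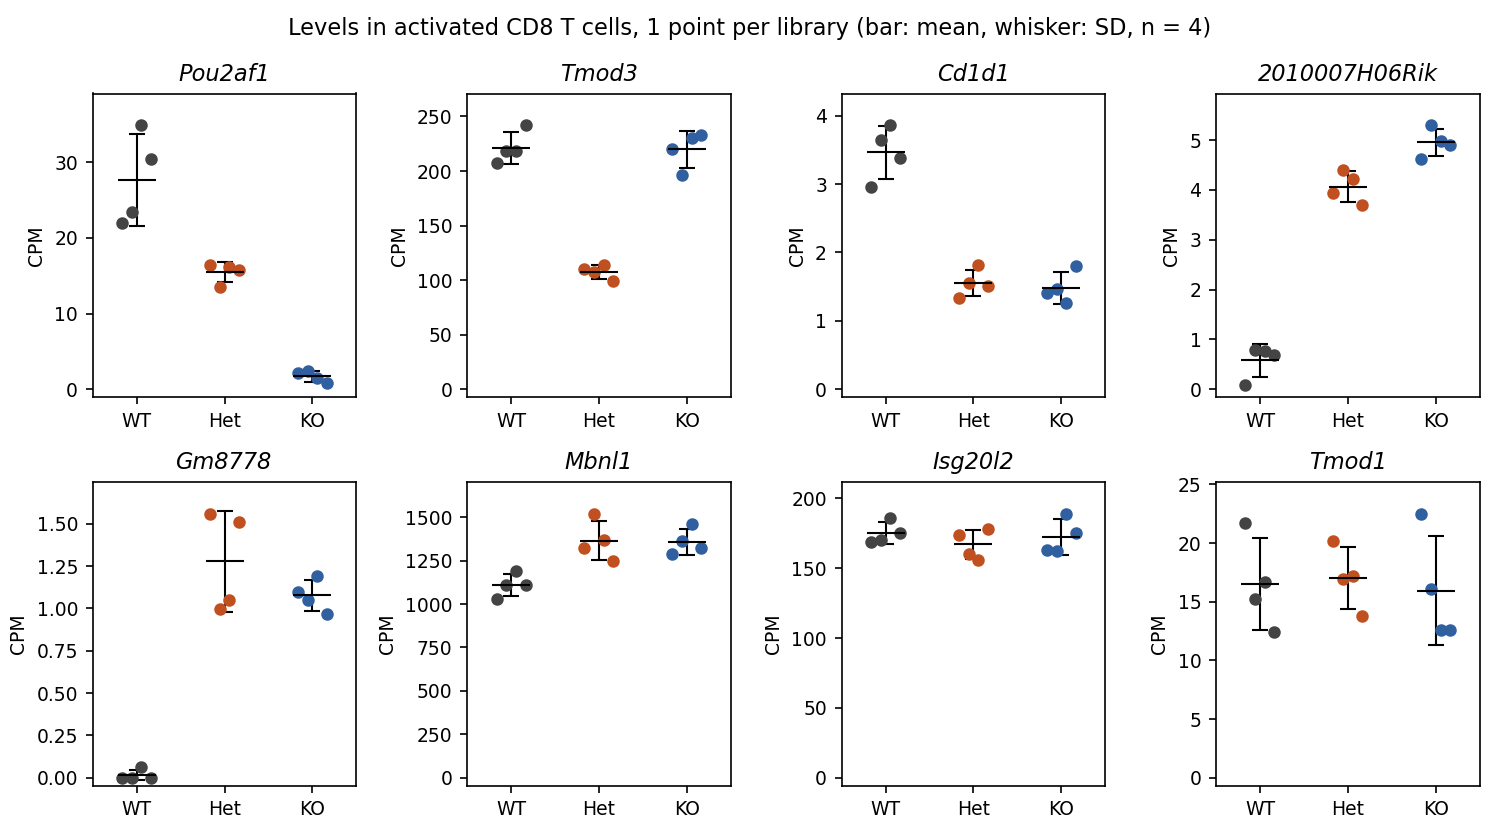
CPM (y axis, from 0) of 8 genes in the 4 CD8 libraries of each genotype (x axis; WT wild type, Het heterozygote, KO knockout), 1 point per library with the mean and SD. Tmod3 is low in heterozygotes alone, Pou2af1 steps down from wild type to heterozygote to knockout, Cd1d1, 2010007H06Rik and Gm8778 lie at like levels in both Cre-carrying groups, and Isg20l2 and Tmod1 overlap between groups.

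Of the 8 called genes 3 lay close together, and the other 5 lay apart, on chromosomes 6, 9, 13 and 14. Rps3a1, Cd1d1 and Tpm3 start within 3.94 Mb of each other on chromosome 3, and Isg20l2 lies between the last 2. Within 10 Mb of the start of Rps3a1, 179 genes were tested. This window was centred on a called gene with earlier results of these data known. Its shares therefore describe the region and are not a test of it. Apart from Rps3a1, 2 of them were called, both lower. In this window 12 genes (6.7%) had an unadjusted p under 0.05 against 1.74% of all genes, 5 (2.79%) had one under 0.01 against 0.341%, and 8 (4.47%) did not overlap between groups against 1.5%. Beside Tpm3 and Cd1d1 the genes under 0.01 were Gm37116 (0.545 ± 0.109 and 1.2 ± 0.36 CPM, SD, n = 4 each), Ube2q1, which encodes a ubiquitin-conjugating enzyme, and Rnu73b, a small nucleolar RNA gene that starts inside the span of Rps3a1. Rnu73b stood at 1.06, 1.35, 2.15 and 2.07 CPM in wild type and 0.818, 0.782, 0.753 and 1.03 CPM in heterozygotes (log2 difference -0.97, edgeR adjusted p = 1.0). Counted by chromosome, 8 of 650 tested genes on chromosome 3 had an unadjusted p under 0.01 (1.23%), 3 of them called. Chromosome 9 had 5 of 698 (0.716%), 2 of them called.

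The windows of 10 Mb around other genes were read against the same shares of all genes, 1.74% at an unadjusted p under 0.05 and 0.0634% called. Of their centres, Tmod3 and Gm8778 were also called genes, and Pou2af1 was the targeted gene. Around Pou2af1, 151 genes were tested, 1 was called (2010007H06Rik), and 5 (3.31%) had an unadjusted p under 0.05. Around Tmod3, which starts on the same chromosome as Pou2af1 but outside its window, 92 genes were tested, none of the others was called at an edgeR adjusted p under 0.05, and 2 (2.17%) had an unadjusted p under 0.05. Around Gm8778, 136 genes were tested and none of the others was called, with 5 (3.68%) at an unadjusted edgeR p under 0.05. The 1 gene under 0.01 there, BC064078, starts 0.0161 Mb away and stood at 0.533 ± 0.287 CPM in wild type and 1.24 ± 0.229 CPM in heterozygotes (SD, n = 4 each; log2 difference 1.17, edgeR unadjusted p = 0.0046). Further along chromosome 3, Mbnl1, which encodes a splicing factor, stood at 1030, 1110, 1190 and 1110 CPM in wild type and 1320, 1520, 1370 and 1250 CPM in heterozygotes. Its groups did not overlap, but the difference of 0.30 did not pass (SE 0.07, edgeR unadjusted p = 0.00122, adjusted p = 1.0). Knockouts held 1360 ± 74.9 CPM of it (SD, n = 4).

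**Figure D4:**
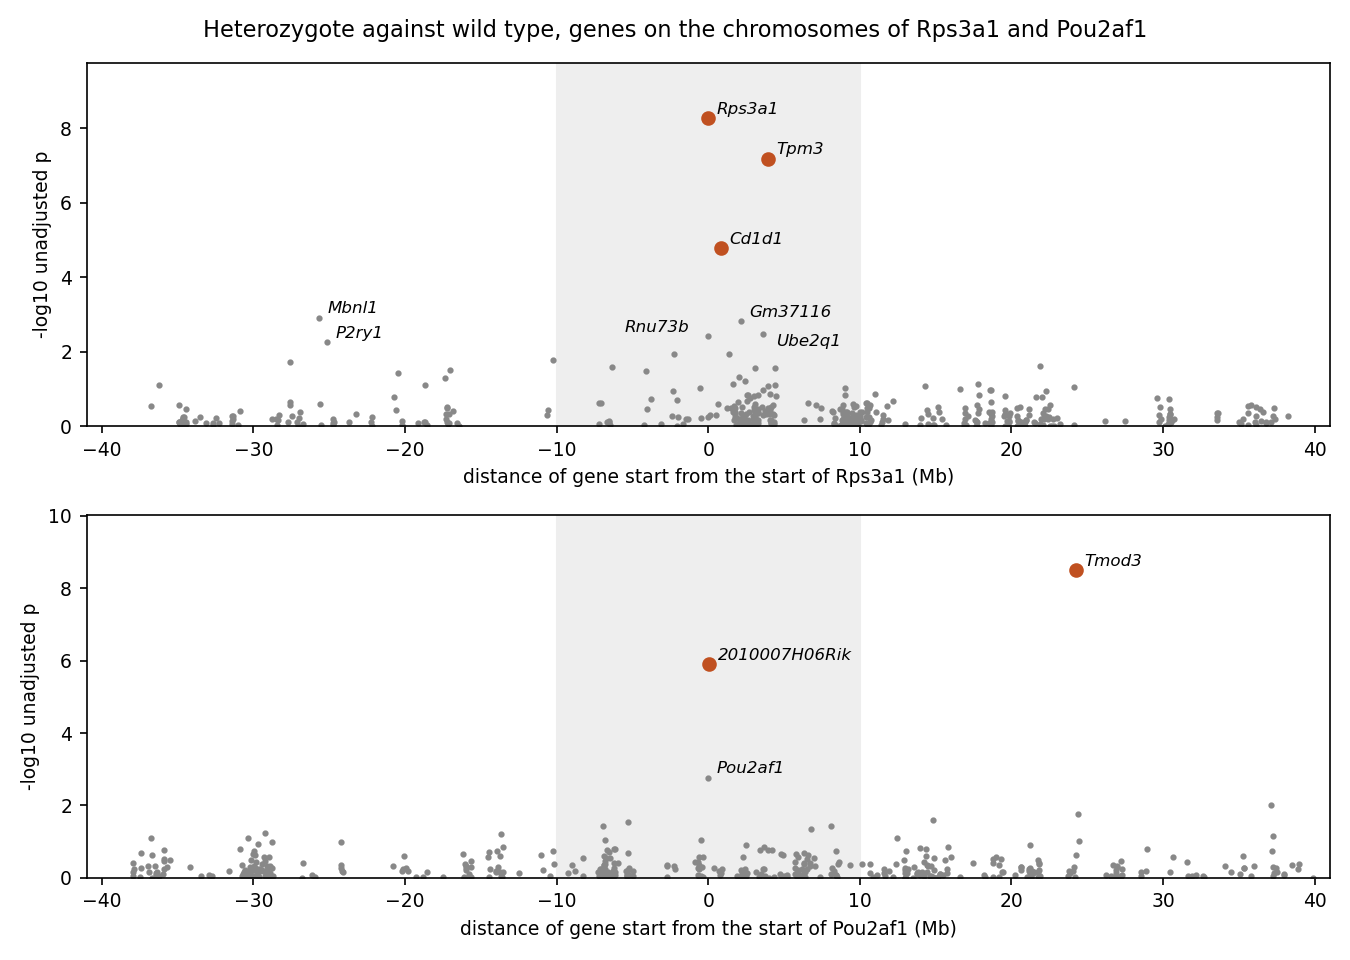
Minus log10 of the unadjusted p (y axis) for each gene tested between heterozygote and wild type, by the distance of its start from that of Rps3a1 (top, x axis in Mb) or Pou2af1 (bottom). Orange points are called genes, names are given at an unadjusted p under 0.01, and the grey band spans 10 Mb each way; 3 calls share the upper band, and Tmod3 lies outside the lower one.

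Knockouts were the group most like the heterozygotes in Cre, and 2 of 12612 genes (0.0159%) were called between them, Tmod3 and Pou2af1. An unadjusted edgeR p under 0.05 was reached by 863 genes (6.84%). DESeq2 called 19 genes, and edgeR called 4 without heterozygote replicate 3. The other 7 genes called against wild type stood at like levels in both Cre-carrying groups. In knockouts Rps3a3 was 187, 194, 175 and 161 CPM, Rps3a1 271, 264, 239 and 213 CPM, Tpm3-rs7 77.7, 80.7, 88.5 and 79.8 CPM, and Tpm3 185, 189, 198 and 188 CPM. Knockouts held 1.48 ± 0.226 CPM of Cd1d1, 4.95 ± 0.277 CPM of 2010007H06Rik and 1.08 ± 0.095 CPM of Gm8778 (SD, n = 4 each). For these 7 genes the knockout minus heterozygote difference ran from -0.25 (Gm8778) to 0.28 (2010007H06Rik), with no edgeR unadjusted p under 0.294.

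The heterozygote change was also compared with that in CD4 cells of the same study, in 1 fit of all 24 libraries. None of the 8 called genes was called for a difference between the cell types in this fit, which had no block for replicate number. The lowest unadjusted edgeR p of the difference among them was 0.158, for Tmod3. CD4 heterozygotes held 118 ± 3.76 CPM of Tmod3 and CD4 wild type 218 ± 16.7 CPM (SD, n = 4 each). Rps3a1 changed by -0.99 in CD4, Rps3a3 by 6.39, Tpm3 by -0.56 and Tpm3-rs7 by 3.64 (edgeR, log2 scale), beside -0.98, 6.41, -0.56 and 3.59 in CD8. Pou2af1 differed by -0.93 in CD4 (difference between cell types 0.10, SE 0.35, edgeR unadjusted p = 0.782).

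Of 13288 genes tested for this difference, 1 was called (0.00753%), and 538 (4.05%) had an unadjusted edgeR p under 0.05. It was Gm38326 (ENSMUSG00000103587.1, chromosome 3, 60788361 to 60794730), a long intergenic noncoding RNA gene. In CD8 cells it stood at 0.228, 0.159, 0.253 and 0.207 CPM in wild type and 0.0744, 0.142, 0.0753 and 0.206 CPM in heterozygotes, with 4 counts or fewer per library, so it was not tested within CD8. In CD4 cells it was 0.206 ± 0.0939 CPM in wild type and 8.17 ± 1.09 CPM in heterozygotes (SD, n = 4 each), and the CD8 minus CD4 difference was -5.92 on the log2 scale (SE 0.59, edgeR adjusted p = 1.72e-05). CD4 and CD8 libraries of the same genotype and number deviated together, and with that number as a block 2 genes were called, the second being Ifit3b, an interferon-induced gene (1.11 ± 0.651 and 0.604 ± 0.406 CPM in CD8 wild type and heterozygote, means of 1.8 and 5.48 CPM in CD4, SD with n = 4).

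Below the calls, 7 genes lay higher and 5 lower with no overlap, an unadjusted edgeR p under 0.01 and a mean of at least 1 CPM. Higher were Gdpd5, a phosphodiesterase gene (3.85 ± 0.244 to 5.46 ± 0.792 CPM), Nt5e, which encodes the ectonucleotidase CD73 (46.1 ± 3.73 to 62.4 ± 6.01 CPM), Enox2 (7.55 ± 1.17 to 9.94 ± 0.637 CPM), Cdkn3, a cell cycle phosphatase (9.73 ± 0.887 to 12.3 ± 0.992 CPM), Nlrc3, a NOD-like receptor (44.6 ± 3.03 to 52.7 ± 3.34 CPM), Nck1, an adaptor of receptor signalling to actin (43.7 ± 0.886 to 50.8 ± 2.76 CPM), and Mbnl1 (wild type to heterozygote, SD, n = 4 each). Lower were Rnu73b, Samd11 (1.8 ± 0.474 to 0.992 ± 0.101 CPM), Pou2af1, Apba3 (13.0 ± 1.47 to 10.2 ± 0.983 CPM) and Ube2q1 (135 ± 5.53 to 118 ± 5.12 CPM). None of these 12 passed (edgeR adjusted p = 1.0 for each).

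Partners and reported targets of POU2AF1 were not called. Of 10 listed genes 7 were tested, 5 above and 2 below wild type, with a median log2 difference of 0.08 beside 0.004 over all genes. This median was 0.03 without wild-type replicate 4, 0.05 without heterozygote replicate 1, 0.13 without heterozygote replicate 4 and 0.23 without heterozygote replicate 3. Pou2f1 stood at 64.3, 65.6, 56.9 and 60.1 CPM in wild type and 63.4, 76.5, 62.1 and 52.1 CPM in heterozygotes. Pou2f2 stood at 114 ± 4.33 and 112 ± 13.0 CPM (SD, n = 4 each). Il2 stood at 4.1, 4.99, 8.23 and 5.11 CPM in wild type and 3.94, 3.91, 3.01 and 12.8 CPM in heterozygotes, so 1 heterozygote lay above every wild-type library and 3 below every one. Csf2 stood at 11.5 ± 2.73 and 15.1 ± 3.23 CPM (SD, n = 4 each).

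The genes by which CD8 effector cells act gave no call either. Of 20 cytotoxic genes 15 were tested, 9 above wild type and 6 below, with a median of 0.07 that was 0.03 without wild-type replicate 4 and 0.04 without heterozygote replicate 2. Gzmb, the main granzyme of killing, stood at 2390, 2000, 3080 and 3310 CPM in wild type and 1700, 1750, 2620 and 2490 CPM in heterozygotes. In both groups replicates 1 and 2 were below replicates 3 and 4, and the groups overlapped (log2 difference -0.33, SE 0.18, edgeR unadjusted p = 0.0915). Prf1, the pore-forming perforin, stood at 119, 114, 117 and 128 CPM and at 156, 136, 144 and 120 CPM (log2 difference 0.22, SE 0.10, edgeR unadjusted p = 0.0463). Gzmc stood at 1.34 ± 0.674 and 2.92 ± 2.93 CPM (SD, n = 4 each).

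All 12 tested cytokine and chemokine genes of 16 were above wild type, by a median of 0.14 on the log2 scale beside 0.004 over all genes, and none passed (edgeR; 2 had an unadjusted p under 0.05, 16.7% beside 1.74% of all genes). Ccl1, a chemokine of activated T cells, stood at 3.04, 5.71, 4.56 and 1.73 CPM in wild type and 13.0, 9.96, 3.99 and 17.7 CPM in heterozygotes. Heterozygote replicate 3 lay within the wild-type range and the other 3 above it (log2 difference 1.58, SE 0.51, edgeR unadjusted p = 0.00889). Xcl1, which attracts cross-presenting dendritic cells, stood at 559 ± 57.0 and 684 ± 80.5 CPM (SD, n = 4 each; edgeR unadjusted p = 0.0261). Ifng stood at 265, 226, 319 and 239 CPM and at 346, 313, 257 and 261 CPM. The summed level of the list overlapped, at 1326 to 1825 CPM in wild type and 1476 to 1918 CPM in heterozygotes, with knockouts at 1364 to 1664 CPM. The median ran from 0.06 without wild-type replicate 2 to 0.30 without wild-type replicate 3.

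Among 17 effector and memory transcription factors, 8 were above wild type and 9 below (median -0.01), and none was called (edgeR). Tbx21, the effector factor T-bet, stood at 65.0 ± 5.61 and 59.6 ± 13.3 CPM, Eomes at 60.2 ± 6.08 and 64.2 ± 21.7 CPM, and Tcf7, a factor of naive and memory cells, at 298 ± 33.0 and 297 ± 68.5 CPM (wild type and heterozygote, SD, n = 4 each). Of 15 inhibitory and costimulatory receptors 7 lay above and 8 below, with Pdcd1 at 58.5 ± 8.6 and 67.3 ± 8.55 CPM (SD, n = 4 each). Of 16 IL-2 receptor and STAT5 genes 5 lay above and 11 below, with Il2ra at 988 ± 129 and 900.0 ± 144 CPM (SD, n = 4 each). Of 13 naive and homing genes 8 lay above and 5 below. Itgae, which encodes an integrin of tissue-resident cells, stood at 5.01, 7.37, 8.74 and 4.14 CPM in wild type and 21.0, 18.1, 2.56 and 11.4 CPM in heterozygotes. The lowest of these 8 values was a heterozygote, and the groups overlapped (edgeR unadjusted p = 0.0438). Cd44 stood at 163 ± 14.2 and 179 ± 7.41 CPM and S1pr1 at 8.97 ± 1.4 and 10.8 ± 2.31 CPM (SD, n = 4 each).

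Interferon response genes had 1 direction but a wide spread. All 34 members were tested and all 34 were below wild type, the median log2 difference being -0.34 beside 0.004 over all genes, where 48.1% lay below. None was called and none had an edgeR unadjusted p under 0.05. The median was -0.12 without wild-type replicate 4, -0.17 without heterozygote replicate 4, -0.56 without wild-type replicate 3 and -0.73 without heterozygote replicate 3. Their summed level was 2208, 1668, 1166 and 2444 CPM in wild type and 1379, 1488, 2304 and 989.8 CPM in heterozygotes. The highest heterozygote exceeded 3 wild-type libraries and the lowest wild-type library lay under 3 heterozygotes. Genes of 1 response are not independent of each other, so their common sign is not a count of separate results. Knockouts stood at 2668, 2958, 1736 and 2590 CPM. Bst2, which tethers virions, stood at 96.5 ± 20.2 and 76.5 ± 15.5 CPM, Rtp4 at 9.43 ± 4.0 and 5.65 ± 2.81 CPM and Oasl1 at 3.17 ± 2.03 and 1.57 ± 1.36 CPM (wild type and heterozygote, SD, n = 4 each).

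Integrated stress response genes, which ATF4 drives when amino acids or folding fail, also lay on 1 side. All 17 tested members of 18 were below wild type, the median being -0.27 beside 0.004 over all genes, and none was called. Mthfd2, a mitochondrial folate enzyme, stood at 352, 318, 367 and 355 CPM in wild type and 259, 254, 313 and 292 CPM in heterozygotes. Its groups did not overlap, which 1.5% of all genes met, and the difference of -0.32 did not pass (SE 0.11, edgeR unadjusted p = 0.0163). Knockouts held 399 CPM of it on average. Psat1, of serine synthesis, stood at 544 ± 61.7 and 466 ± 80.5 CPM, and Slc7a11, the cystine carrier, at 3.42 ± 1.24 and 1.81 ± 0.833 CPM (SD, n = 4 each). The summed level was 2821, 2523, 3066 and 3043 CPM in wild type and 2120, 2079, 2808 and 2652 CPM in heterozygotes, with 2 heterozygotes inside the wild-type range.

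Glycolysis genes differed more between replicates than between genotypes. All 17 were below wild type, by a median of only -0.06, and none was called. This median turned to 0.14 without wild-type replicate 4, to 0.04 without heterozygote replicate 1 and to 0.06 without heterozygote replicate 2. Their summed level was 5765, 5514, 7445 and 9764 CPM in wild type and 5106, 4855, 9437 and 7576 CPM in heterozygotes, so replicates 1 and 2 stood below replicates 3 and 4 in both groups. Aldoa stood at 829 ± 231 and 775 ± 278 CPM, Hk2 at 226 ± 61.1 and 206 ± 45.7 CPM and Pfkp at 664 ± 185 and 572 ± 219 CPM (SD, n = 4 each). Of 22 cholesterol synthesis genes 20 were below wild type (median -0.10, and -0.16 without heterozygote replicate 3). Of 20 unfolded protein response genes 17 lay below, with a median of -0.06 that was -0.15 in replicates 1 and 2 and 0.08 in replicates 3 and 4. Of 28 cell cycle genes 22 lay above, with a median of 0.03 (-0.03 without heterozygote replicate 4), and of 25 nuclear respiratory chain genes 16 lay above, with a median of 0.02 (-0.02 without wild-type replicate 4 and -0.04 without heterozygote replicate 4). The part of the replicate in these differences was not tested.

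In 7 further lists the medians lay between -0.10 and 0.03, and between -0.15 and 0.10 on leaving out each library, and no gene was called. They were heat shock genes (7 of 10 tested above wild type), p53 targets (13 of 19), small ribosomal subunit genes without Rps3a1 and its copies (13 of 30), MHC class I and peptide loading genes (2 of 15), activation and immediate early genes (7 of 20), T cell receptor genes (12 of 17) and mitochondrial transcripts (4 of 7). The last list holds 13 genes, and 6 of them stayed under 1 CPM in all 8 libraries. Of the tested ones, mt-Nd6, the one protein-coding gene of the light strand, stood at 124, 133, 157 and 160 CPM in wild type. Heterozygotes held 115, 115, 122 and 102 CPM of it. Since the strand setting is not given, its reads cannot be told from those of the opposite strand. The groups did not overlap, which 1.5% of all genes met, and the log2 difference of -0.34 did not pass (SE 0.14, edgeR unadjusted p = 0.0308). By contrast mt-Co1 stood at 8730 ± 786 and 8330 ± 240 CPM and mt-Cytb at 3930 ± 272 and 4190 ± 367 CPM (SD, n = 4 each). Lists of cell type markers held few tested genes, and none was called. Their median log2 differences were 0.07 for CD8 T cells (5 tested), -0.20 for CD4 T cells (3), -0.17 for B cells (8) and 0.46 for dendritic cells (2). Of gamma delta T cell markers Trdc alone was tested, at 1.45 to 1.82 CPM in wild type and 1.85 to 2.49 CPM in heterozygotes. Its groups did not overlap, which 1.5% of all genes met, and the log2 difference of 0.41 did not pass (SE 0.22, edgeR unadjusted p = 0.0881). With Sox13 added the summed level of these markers was 1.519 to 1.902 CPM in wild type, 1.919 to 2.489 CPM in heterozygotes and 1.325 to 2.68 CPM in knockouts. The part of such cells in the other differences was not tested. Of NK cell markers Klre1 alone was tested, at 3.93 ± 0.506 and 5.99 ± 1.69 CPM (SD, n = 4 each; edgeR unadjusted p = 0.0175), with Ncr1 at 0 and Klrb1c at 0.0793 CPM or less. Of CD4 T cell markers Cd40lg stood at 1.24 ± 0.521 and 1.5 ± 0.548 CPM and Zbtb7b at 4.68 ± 1.56 and 4.07 ± 0.948 CPM (SD, n = 4 each), and of CD8 markers Cd3e at 260.0 ± 25.1 and 277 ± 28.0 CPM.

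**Figure D5:**
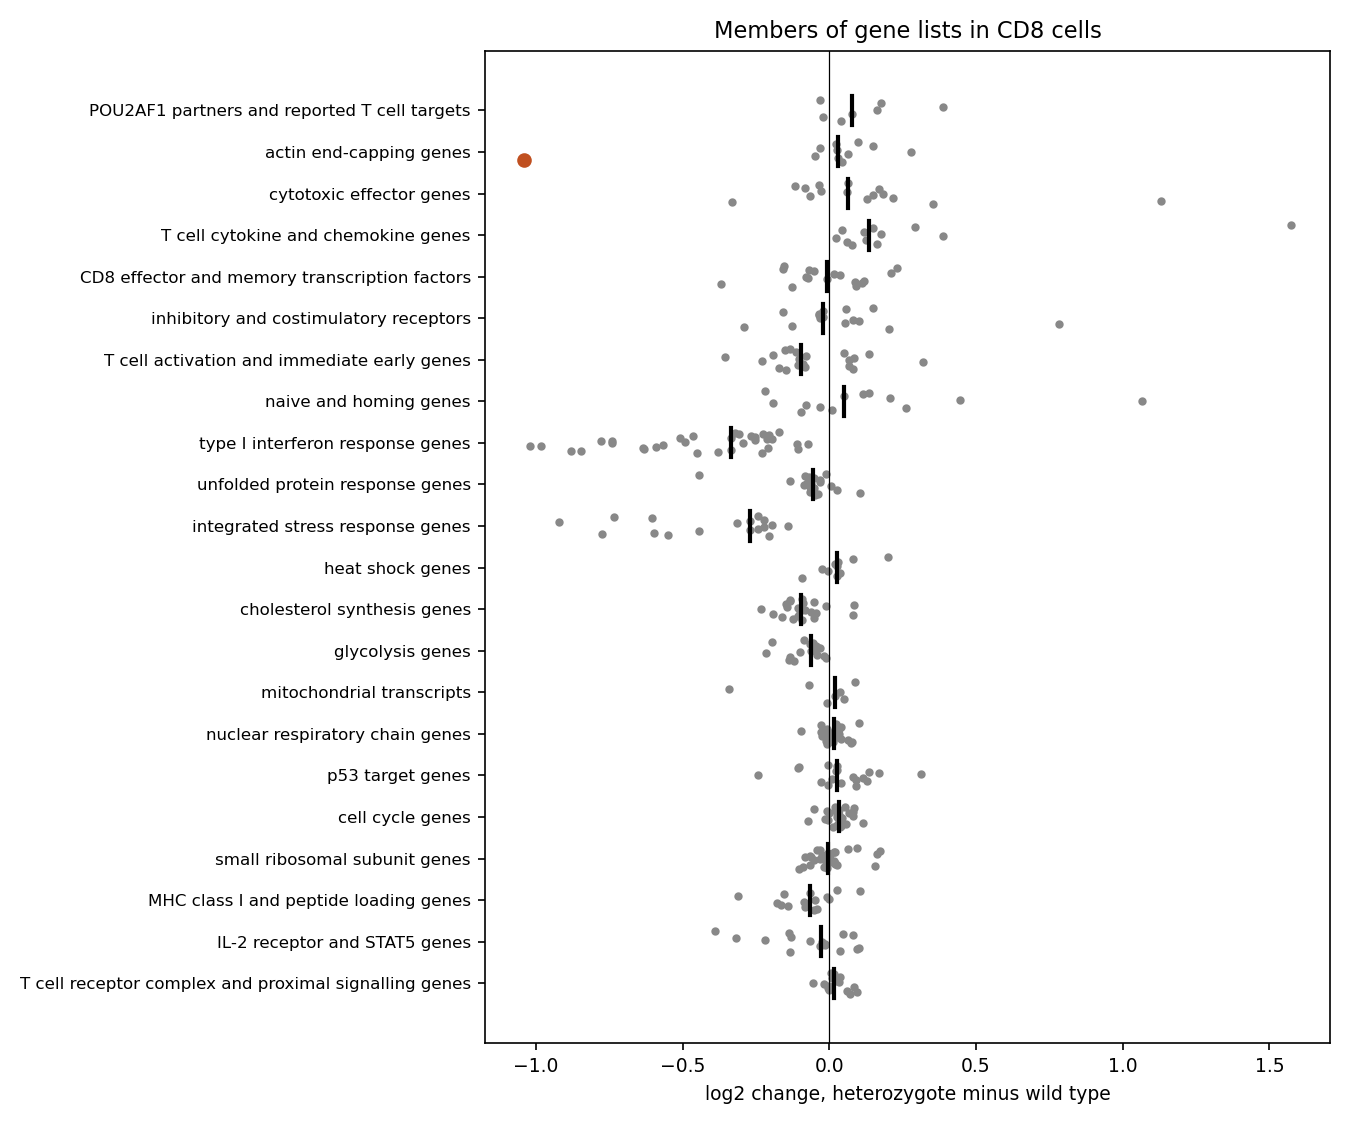
Log2 difference between heterozygote and wild type (x axis) of every tested member of the gene lists with 7 or more tested members (y axis), 1 point per gene, with the list median as a bar. Orange marks a called gene, Tmod3, the single one in the lists shown; interferon and integrated stress response genes lie wholly left of 0 and cytokine genes wholly right, and most other medians sit near 0.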

How the data were processed

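RNA from sorted, activated CD8 T cells was sequenced from poly(A) libraries, per the labels' protocols. The authors' deposited raw counts are whole numbers per gene for 55401 genes. Per the submitters' processing notes, Trimmomatic 0.35, STAR 2.7.1a, DESeq2 1.26.0 and the build GRCm38 were named; settings, annotation release and strand: not given in the sources used here. The deposited table sets multimapping reads apart in a summary line (17.549% to 18.498% of entries in the 8 libraries; all 4 summary lines together 31.565% to 33.412%), so a gene and its near-identical copy keep only the reads that the aligner placed once. Summary lines were left out. A deposited normalized signal, equal to raw counts over 1 factor per library, covers 20961 genes and was used in 1 alternative. Columns of values left unused numbered 0. Identifier and coordinates matched GENCODE M21 for 54349 genes.

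The counts were fitted with edgeR 4.0.16 under R 4.3.3 (filterByExpr, count minimum 10; TMM; quasi-likelihood F test, two-sided; Benjamini-Hochberg over all genes tested; called at 0.05). The 12 CD8 libraries were fitted together (12612 genes, 9 residual degrees of freedom), and all 24 for the difference between CD8 and CD4 (13288 genes, 18 degrees). The labels state no model. A standard error is the absolute log2 change divided by the root of its F statistic. Replicate libraries differed by more than sampling noise (12 pairs, chi-square over degrees of freedom at least 3.212). Replicates 1 and 2 were the most alike in both groups, at 3.212 in heterozygotes and 3.549 in wild type. Every other pair lay at 10.992 to 27.295. Whether replicates 1 and 2 are independent of each other was not tested, and each group is counted as n = 4 throughout. Floors and intervals cover counting error only; without molecular identifiers, reads are not separate molecules. Sums of a gene and its copy were compared with an exact permutation test over all 70 assignments, computed in Python 3.11.15. Copies were found with blastn 2.17.0 and aligned with Biopython 1.88. The procedure was tested on simulated data.

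CD4 and CD8 libraries of 1 genotype and number deviated together (correlations 0.295 to 0.397 in wild type, 0.147 to 0.374 in heterozygotes, all above 0.1). CD4 and CD8 libraries of different number were not compared, so whether that number pairs them was not tested. Within CD8, wild-type replicate 4 and heterozygote replicate 3, which share neither number nor genotype, reached 0.585.

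The gene lists and the rule for named genes were chosen with earlier results of these data known. Named are Pou2af1, every called gene, up to 8 genes each way not passing (unadjusted p under 0.01, mean of at least 1 CPM, no overlap, without Gm, Rik or clone names, receptor segments, Xist and Y-linked genes), a fixed set of T cell, tropomyosin, tropomodulin, Rps3a and Cd1d genes, genes called in the other comparisons, and the 3 members of lowest p of a list. The last were kept only for lists with a member at an unadjusted p under 0.05, with all of 4 or more tested members on 1 side, for POU2AF1 itself and for CD4 markers; other lists are given by counts and medians. Isg20l2, Clec2g, Colca2, BC064078, Gm37116, Gm7600, Ifit3b, Ccr2, Ccl9 and markers beyond this were named after their values or positions were seen. Alternatives were another scaling (RLE), DESeq2 1.42.0, limma 3.58.1 on log2 of the deposited signal plus 1, no count filter, other sets of libraries, sex and replicate terms, and leaving out each library. One marker gene is not reported here.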

Additional observations from a re-analysis of the deposited data

Results flagged for a closer look

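Of 142 groups of 4 libraries examined (wild type or heterozygote, for each gene named), 5 held a library standing far from the other 3 by Dixon's criterion at 95%, which chance alone gives for about 1 group in 20. In heterozygotes Gm7600, a near-identical copy of Rps3a1 on chromosome 8, stood at 26.6 CPM in replicate 1 and at 1.28 to 2.35 CPM in the other 3. Il2 stood at 12.8 CPM in heterozygote replicate 4 and at 3.01 to 3.94 CPM in the others. In wild type, 2010007H06Rik stood at 0.0759 CPM in replicate 1 and at 0.69 to 0.792 CPM in the others, and Klre1 at 4.69 CPM in replicate 3 and at 3.65 to 3.72 CPM in the others. Gm8778 stood at 0.0633 CPM in wild-type replicate 3 and at 0 in the others, which is 1 count, under the floor of 3, and with the others tied at 0 any single count meets the criterion, so nothing is read from it.

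The heterozygote change differed between cell types for Gm38326 by -5.924 on the log2 scale (CD8 minus CD4, edgeR adjusted p = 1.72e-05), with 7.01 to 9.4 CPM in CD4 heterozygotes and at most 0.253 CPM in the CD8 wild-type and heterozygote libraries.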

How the results depend on the processing

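The count of 8 genes called between heterozygote and wild type was 7 or 8 with RLE scaling, DESeq2, limma, no count filter, the 8 libraries alone, all 24 libraries, and terms for replicates 1 and 2 against 3 and 4 or sex, and 7 to 8 on leaving out each library. It was 4 in male libraries only and 4 in replicates 3 and 4 alone, which hold fewer libraries; Rps3a1, Rps3a3, Tpm3-rs7 and Tmod3 passed under all 20 alternatives. Replicates 1 and 2 alone (female heterozygotes, male wild type) gave 7 calls, 5 of them shared, and added Ccr2 and Ccl9. Correlations between same-numbered heterozygote and wild-type libraries were 0.219, 0.224, -0.264 and 0.092 for numbers 1 to 4, so they differed in sign. Not every library correlated best with its own number. Whether the number pairs them was not tested. With the replicate block 7 genes were called, all among the 8, Cd1d1 being the one lost. Between knockout and heterozygote the 2 calls became 19 with DESeq2 and 2 to 4 on leaving out each library (4 without heterozygote replicate 3); the replicate block gave 2. For the CD8 minus CD4 difference the replicate block gave 2 calls in place of 1. The cause of these shifts was not tested.

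For Pou2af1 the heterozygote change ran from -0.934 to -0.708 over the libraries left out, and it passed under none of 20 alternatives (lowest adjusted p = 0.0858, DESeq2). Of 1418 values of named genes under an alternative, 1347 kept direction and side of the threshold, 22 no longer passed, 2 newly passed and 47 turned sign, none of the last in a called gene. Of 384 list medians under an alternative, 10 moved by more than the spread between libraries.

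Log2 differences that turned sign were as follows. In male libraries only they were Aldoa 0.266, Ccl9 -0.717, Cd3e -0.059, Eomes -0.377, Gm7600 -0.162, Gzmc -1.318, Hk2 0.142, Il2ra 0.079, Pfkp 0.106, Pou2f1 -0.154, Psat1 0.033, Tbx21 0.156 and Tmod1 -0.086. In replicates 3 and 4 alone they were Ccl9 -0.153, Ccr2 -0.041, Cd4 1.039, Cd8b1 -0.040, Eomes -0.275, Gm7600 -0.449, Gzmc -0.462, Ifng -0.113, Pou2f1 -0.039, S1pr1 -0.123 and Tbx21 0.021. In replicates 1 and 2 alone they were Il2 -0.210, Pou2f2 0.097, Tcf7 0.134 and mt-Co1 0.038. With sex and the replicate split (1 and 2 against 3 and 4) as terms Eomes was -0.031 and Pou2f1 -0.003, and Il2 was -0.031 with the replicate block and -0.126 with limma. On leaving out each library Aldoa ran from -0.341 to 0.099, Eomes from -0.116 to 0.241, Hk2 from -0.238 to 0.049, Il2 from -0.634 to 0.326, Pou2f1 from -0.063 to 0.126, Pou2f2 from -0.068 to 0.058, Tcf7 from -0.122 to 0.109 and Tmod1 from -0.070 to 0.205. At this depth, a gene with 3 counts or fewer in every library cannot be told from one at 0.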

Other observations

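For Ccr2 and Ccl9, heterozygote replicates 1 and 2 stood above every wild-type library, and heterozygote replicates 3 and 4 lay within the wild-type range. Ccr2, a chemokine receptor, was 5.62, 6.82, 8.55 and 3.52 CPM in wild-type replicates 1 to 4 and 18.1, 19.0, 5.57 and 6.24 CPM in heterozygotes. Ccl9, a chemokine, was 54.1, 53.1, 38.8 and 17.0 CPM in wild type and 117, 102, 21.5 and 28.8 CPM in heterozygotes. Over all replicates neither passed (edgeR unadjusted p = 0.0265 for Ccr2 and 0.229 for Ccl9, adjusted p = 1.0 for both). Whether the heterozygote difference of these genes itself differed between the replicates was not tested. The heterozygote libraries that held the higher values, replicates 1 and 2, were also the female ones, so sex and replicate cannot be told apart there. The female wild-type library, replicate 3, held the highest wild-type value of Ccr2 (8.55 CPM). Its Ccl9 (38.8 CPM) lay below that of replicates 1 and 2 (54.1 and 53.1 CPM).

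Beside Mbnl1 on chromosome 3 lie Gm33707 and Gm38326, which start at 60769887 and 60788361. In CD8 libraries Gm33707 did not exceed 0.137 CPM in either genotype, while in CD4 it was 0.0703 ± 0.101 CPM in wild type and 1.67 ± 0.179 CPM in heterozygotes (SD, n = 4 each). P2ry1, a purine receptor gene that starts at 61002795, was 1.06, 1.03, 1.46 and 0.967 CPM in CD8 wild type and 0.446, 0.284, 0.377 and 0.754 CPM in CD8 heterozygotes, with no overlap and no pass (edgeR unadjusted p = 0.00568).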
